A study of Mus musculus with 6 samples.

Results

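The genes described here are 9 members of the machinery that writes and erases 5-methylcytosine in mouse DNA, namely Dnmt1, Uhrf1, Dnmt3a, Dnmt3b, Dnmt3l, Tet1, Tet2, Tet3 and Tdg. They were taken by symbol from gene tables of 24054 rows, and all 9 had a row and passed the filter on low counts that left 14539 genes for testing. RNA was sequenced from a double knock-in (DKI) mouse embryonic stem cell (ESC) line, heterozygous for a Foxa2-Venus and homozygous for a Sox17-Cherry fusion, so that every sample below carried both reporters on 1 cell line background. Undifferentiated ESCs, sorted as negative for both reporters (d0), were compared with cells treated with Wnt3a and Activin A in endoderm differentiation medium. These were Foxa2-Venus-pos/Sox17-Cherry-neg mesendoderm at day 3 (d3F) and Foxa2-Venus-pos/Sox17-Cherry-pos definitive endoderm at day 5 (d5FS). Each population had 2 samples, described as independent biological replicates, and the time after plating, the medium and the sorting gate all changed together between populations, so their parts cannot be told apart.

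DNA methylation on CpG dinucleotides is copied to the daughter strand at each replication by the maintenance methyltransferase Dnmt1, which Uhrf1 brings to hemimethylated sites. New methylation is laid down by the de novo enzymes Dnmt3a and Dnmt3b, and Dnmt3l, which has no catalytic activity of its own, assists them and is known for its role in germ cells and for its high level in ESCs. The Tet dioxygenases oxidise 5-methylcytosine, and thymine DNA glycosylase (Tdg) excises the further oxidised bases so that repair can restore an unmodified cytosine. Tet1 and Tet2 are known as the Tet genes of ESCs, and Tet3 as the form of the zygote and of many differentiated tissues.

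Totals ranged from 16457729 to 22768686 counts per sample. The populations carried their marker genes: the summed level of 6 mesendoderm markers was 11.9 and 32.0 CPM (counts scaled to a common library total) in the d0 samples against 344 and 374 in d3F, and that of 7 endoderm markers, which include the sorted Foxa2 and Sox17, was 5.22 and 7.28 CPM in d0 against 631 and 1145 in d5FS. The d0 samples were unlike each other. Replicate 2 held 1465 CPM of 10 naive pluripotency markers and 105 CPM of 7 two-cell-like markers, against 356 and 5.35 CPM in replicate 1, whereas 4 primed pluripotency markers summed to 29.6 CPM in replicate 2 and 147 CPM in replicate 1. Fibroblast (feeder) markers, 8 genes, summed to 11.3 and 14.9 CPM in d0, 32.4 and 77.8 CPM in d3F and 196 and 232 CPM in d5FS. The 4 of them called higher in d5FS were the collagen genes Col1a1, Col1a2 and Col3a1 and Postn, whereas Thy1 had 3.07 and 1.49 CPM in d0 and 1.02 and 0.459 CPM in d5FS, and Twist2, Dcn and Lum stayed below 1 CPM in d5FS. The cultures had been depleted of feeders before differentiation and the cells were sorted. In all, 4 visceral endoderm markers summed to at most 3.08 CPM in d0 and d3F and to 42.9 and 98.1 CPM in d5FS. The part of these differences in the results below was not tested.

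The promoters of the de novo group differed in the density of the dinucleotide that the proteins act on. The 250 bases upstream of the 3 starts of Dnmt3l and the start of Dnmt3b in the promoter table are shown because these were the most abundant de novo transcripts of the d0 samples and had unlike courses afterwards. Sequences are from RefSeq on the plus strand of GRCm38.p6, which is the mm10 build, and each CpG is in capitals.
Dnmt3l, first start, chr10:78042037-78042286: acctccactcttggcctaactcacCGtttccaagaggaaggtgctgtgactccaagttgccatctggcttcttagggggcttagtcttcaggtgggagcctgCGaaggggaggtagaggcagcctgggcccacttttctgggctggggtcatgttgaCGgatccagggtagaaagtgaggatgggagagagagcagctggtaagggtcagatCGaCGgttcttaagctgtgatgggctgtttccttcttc
Dnmt3l, the next start, chr10:78049592-78049841: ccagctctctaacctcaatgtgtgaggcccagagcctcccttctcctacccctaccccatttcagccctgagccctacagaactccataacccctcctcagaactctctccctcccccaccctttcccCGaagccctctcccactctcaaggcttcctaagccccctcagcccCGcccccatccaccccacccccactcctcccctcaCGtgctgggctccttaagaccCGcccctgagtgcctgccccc
Dnmt3l, the last start, chr10:78055085-78055334: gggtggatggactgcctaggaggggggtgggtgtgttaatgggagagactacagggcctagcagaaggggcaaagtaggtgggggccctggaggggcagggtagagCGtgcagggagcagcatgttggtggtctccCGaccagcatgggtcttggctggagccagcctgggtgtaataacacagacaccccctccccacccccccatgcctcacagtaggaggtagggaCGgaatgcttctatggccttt
Dnmt3b, chr2:153649199-153649448: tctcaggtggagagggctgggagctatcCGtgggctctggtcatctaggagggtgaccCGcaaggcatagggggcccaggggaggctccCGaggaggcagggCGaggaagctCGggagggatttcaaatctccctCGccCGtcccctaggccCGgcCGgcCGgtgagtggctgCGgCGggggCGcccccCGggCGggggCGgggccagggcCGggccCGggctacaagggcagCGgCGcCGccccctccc
The Dnmt3l windows held 5, 4 and 3 CpG and the Dnmt3b window held 21. With the 50 bases after each start added, the 3 Dnmt3l windows held 6, 4 and 3 CpG per 300 bases, and 56.4, 68.6 and 76.7% of 32851 mouse promoter windows of that length held at least as many, the median being 7. Dnmt3b held 30 CpG per 300 bases, which 11.7% of windows reached. Of the other members, Tet2 held 57 (reached by 0.152% of windows), Tet1 17, Tet3 22 and Tdg 26, and the starts of Dnmt1 ranged from 2 to 33 and those of Uhrf1 from 12 to 33. These counts describe the sequence, and whether the sites were methylated in these cells was not analysed here.

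Dnmt3l fell from d0 to d3F, and Dnmt3l, Tet1 and Dnmt3a fell from d0 to d5FS. A gene was called changed when edgeR's quasi-likelihood test gave a Benjamini-Hochberg adjusted p below 0.05 over all 14539 genes and the log2 fold change exceeded 1 in size. By that rule 1 of the 9 members was called lower in d3F than in d0, where 4.70% of all genes were called (1.90% lower). From d3F to d5FS edgeR called none, against 1.54% of all genes, with 1 member, Dnmt3a, at an unadjusted p below 0.05, and DESeq2 called none either. From d0 to d5FS 3 members were called lower and none higher, where 22.8% of all genes were called (10.4% lower). The median log2 fold change of the 9 members was -0.34, -0.64 and -1.08 in the 3 comparisons, against -0.01, 0.01 and 0.02 for all genes tested. The samples of the populations did not overlap for 5 members from d0 to d3F (51.0% of all genes), 6 from d3F to d5FS (52.2%) and 8 over the whole course (62.7%). Both comparisons from d0 share the d0 samples. The replicate number was also fitted as a block, since same-numbered samples deviated together, although no pairing of samples is stated. That number may stand for the kind of library, mRNA or total RNA, here and wherever replicates are compared below. With the block the members called were 2 (9.08% of all genes), 0 (6.31%) and 5 (29.5%). The additional genes were Tet1 in d3F and Uhrf1 and Tet3 in d5FS. In bulk RNA, fewer cells expressing a gene and less of its RNA per cell cannot be told apart, for any of the differences that follow.

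**Figure D1:**
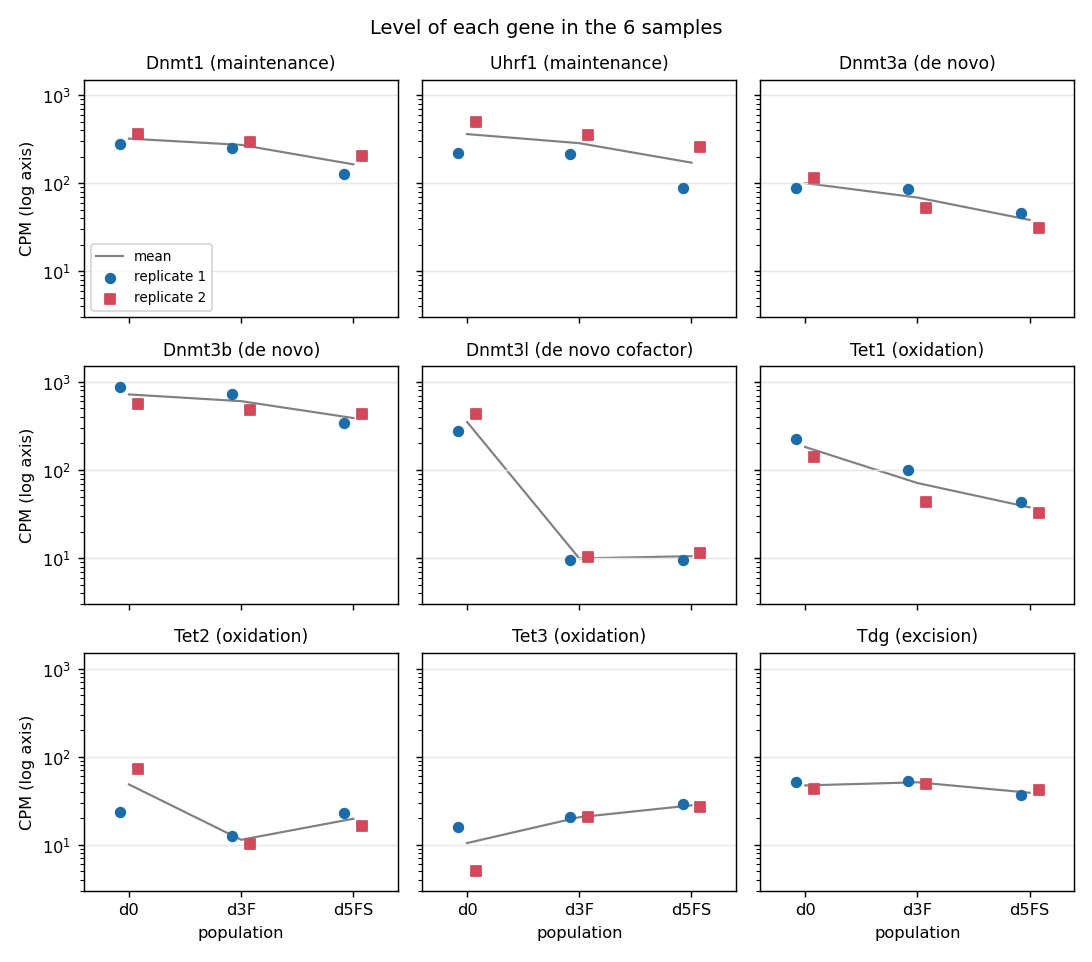
Level of each of the 9 genes in every sample, in CPM scaled by TMM on a log axis, with replicate 1 as circles, replicate 2 as squares and a line through the population means. Dnmt3l stands at 274 and 428 CPM in d0 and at 9.53 to 11.5 CPM in the other 4 samples, whereas Dnmt3b stays above 342 CPM in all 6.

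**Figure D2:**
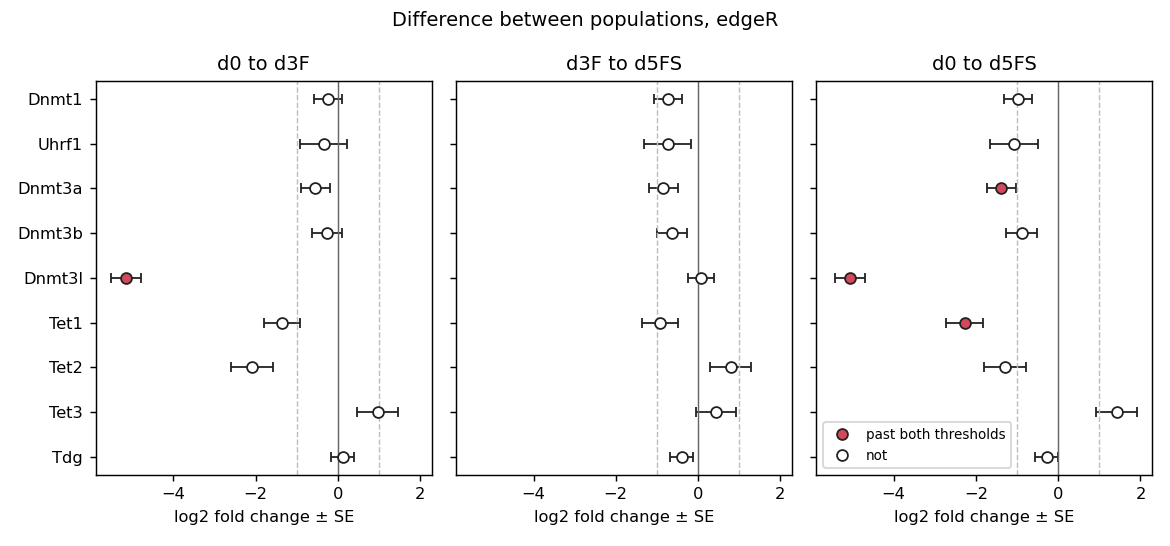
Log2 fold change (second minus first population) of each gene in each comparison, with its standard error as the bar. Filled points passed both thresholds, and dashed lines mark a log2 fold change of 1 in either direction. Dnmt3l lies at -5.15 and -5.06 in the comparisons from d0 and at 0.08 from d3F to d5FS.

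Dnmt3l, the catalytically inactive partner of the de novo enzymes, lies on chromosome 10 from 78041947 to 78063622 (mm10, plus strand). It stood at 274 and 428 CPM in d0, at 9.58 and 10.3 CPM in d3F, and at 9.53 and 11.5 CPM in d5FS. Both d0 samples lay above all others, and the d3F and d5FS samples overlapped. Between d0 and d3F the gene fell by 5.15 (log2, standard error 0.37, edgeR adjusted p = 0.0022), to 2.82% of its d0 mean, and ranked 3 of 14539 genes by p. Against d0 it was lower in d5FS by a log2 fold change of -5.06 (standard error 0.369, edgeR adjusted p = 0.000916). Between d3F and d5FS the value was 0.08 (adjusted p = 0.923). Its place among all genes ordered by CPM went from the 96.4 and 97.5 percentile in d0 to between 38.8 and 42.2 afterwards. Both calls were kept in all 6 fits that left out 1 sample, with values from -5.43 to -4.78 for d3F and from -5.36 to -4.70 for d5FS. The autoimmune regulator gene Aire overlaps the 5′ end of Dnmt3l on the other strand and held at most 44 counts in any sample, and no source states that strand was kept.

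The genes whose course over the 6 samples lay nearest to that of Dnmt3l were Dppa4 and Dppa3, among 8862 genes with a mean of at least 10 CPM. The measure was the root mean square difference of centred log2 CPM, 0.303 for Dppa4 and 0.485 for Dppa3. Dppa4, a pluripotency-associated nuclear protein, had 116 and 184 CPM in d0 and 5.45 to 7.19 CPM in the other 4 samples. Dppa3 (Stella), which hinders Uhrf1 from binding chromatin, had 49.7 and 120.2 CPM in d0 and 3.54 to 5.96 CPM in the others. For both, as for Dnmt3l, d0 replicate 2 was the highest sample.

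Dnmt3b (chromosome 2, 153649450 to 153687730, plus strand), the de novo methyltransferase of the early embryo, remained the most abundant DNA methyltransferase RNA. It had 877 and 565 CPM in d0, 734 and 475 CPM in d3F, and 342.5 and 435.5 CPM in d5FS. The d0 and d3F samples overlapped, and both d5FS samples lay below all 4 of them. No difference passed in edgeR. The log2 fold change was -0.25 for the first step (standard error 0.365, adjusted p = 0.769) and -0.64 for the second (adjusted p = 0.404). Over the whole course it was -0.89 (standard error 0.368, adjusted p = 0.111). All 6 values lay between the 97.8 and 99.1 percentile of genes by CPM.

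Dnmt3a, the other de novo enzyme, on chromosome 12 from 3806007 to 3914443 (plus strand), was at a lower level throughout. Its values were 87.6 and 114 CPM in d0, 85.6 and 52.25 CPM in d3F, and 45.5 and 31.35 CPM in d5FS. Each population lay below the preceding one without overlap, but only the whole course passed. Between d0 and d5FS, Dnmt3a fell by 1.39 (log2, standard error 0.356, edgeR adjusted p = 0.0271). The steps were -0.54 (adjusted p = 0.448) and -0.84 (adjusted p = 0.257). The call was lost without d0 replicate 2 (-1.18, adjusted p = 0.098), without d5FS replicate 1 (-1.69, adjusted p = 0.0713) and without d5FS replicate 2 (-1.13, adjusted p = 0.128), fits in which the share of all genes called was 12.8, 6.83 and 10.1%. It was also lost on library totals without TMM (-1.25, adjusted p = 0.0538) and with the study's method, DESeq2 against a log2 fold change of 1 (-1.42).

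The RSEM tables also carry a transcript length per gene, weighted by the estimated abundance of its transcripts, and for Dnmt3a this length differed between populations. It was 9020.47 and 9017 bases in d0, 9205 and 9145 bases in d3F, and 9282 and 9563 bases in d5FS, with no overlap between the populations. Dnmt3a has 3 transcripts in the files. In GENCODE M21, 2 of them have 23 exons and start at the 5′ end of the gene, and the other has 19 exons and starts inside it at position 3891744. The latter encodes the shorter protein known as Dnmt3a2, the main form in ESCs. The length that the authors' annotation gave each transcript is not known here, so no share of each form was derived. In GENCODE M21 the internal-start form (5424 bases) and a longer form (9685 bases) both end at position 3914443. The other longer form (8737 bases) ends at 3913491. With 2 samples against 2 an exact permutation test cannot go below p = 0.33, and the lengths are given as a description. Among the other 8 members the weighted length varied by at most 1.14% over the samples. The promoter windows of the longer forms held 46 and 47 CpG per 300 bases and that of the internal start held 18, which 29.7% of windows reached.

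The nearest profiles to Dnmt3a were those of Hmgxb4, an HMG-box protein gene, and Polr3g, a subunit of RNA polymerase III known from pluripotent cells, with differences of 0.109 and 0.114 on the log2 scale. Polr3g went from 69.4 and 75.6 CPM in d0 to 33.0 and 20.75 CPM in d5FS, and Hmgxb4 from 135 and 142 CPM to 59.0 and 45.7 CPM.

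The maintenance pair did not pass in any comparison in the edgeR fit as reported. Dnmt1 (chromosome 9, 20907209 to 20959888, minus strand) had 278 and 366 CPM in d0, 249.8 and 296 CPM in d3F, and 126 and 202.3 CPM in d5FS. The d5FS samples lay below the other 4, while d0 and d3F overlapped. The difference to d3F was -0.24 (log2, standard error 0.335, adjusted p = 0.766) and that to d5FS -0.97 (standard error 0.338, edgeR adjusted p = 0.0699). DESeq2's Wald test put the latter at -1.01 with an adjusted p of 0.0327, in a comparison where that test called 26.3% of all genes. With the replicate as a block, edgeR put it at -0.99 (standard error 0.2, adjusted p = 0.0109), short of the fold change threshold.

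Uhrf1 (chromosome 17, 56303321 to 56323486, plus strand), which recognises hemimethylated CpG and recruits Dnmt1, differed between the replicates of every population. It had 222 and 502 CPM in d0, 214 and 357 CPM in d3F, and 87.3 and 256 CPM in d5FS, and every pair of populations overlapped. Replicate 2 exceeded replicate 1 in all 3 populations, by 1.18, 0.74 and 1.55 on the log2 scale. The value from d0 to d5FS was -1.08 (standard error 0.574, edgeR adjusted p = 0.202), and with the replicate as a block it was -1.145 (standard error 0.24, adjusted p = 0.0122). Dnmt1 was likewise higher in replicate 2 in every population, by 0.40, 0.25 and 0.69 (log2), as was Dnmt3l, whereas Tet1 was lower in replicate 2 in every population, by -0.69, -1.22 and -0.40.

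Genes of DNA replication moved in the same interval. Of 19 S phase and proliferation genes, such as the Mcm helicase subunits, Ccne1 and Rrm2, none was called from d0 to d3F and 10 were called lower in d5FS than in d0 (10.4% of all genes), none higher, with a median log2 fold change of -1.04 (all genes tested, 0.02). Their summed level was 4695 and 5518 CPM in d0, 4072 and 3836 CPM in d3F and 2144 and 2591 CPM in d5FS. Its part in the values of Dnmt1 and Uhrf1 was not tested.

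Among the Tet genes, Tet1 was lower in d5FS than in d0, and Tet3 had the only positive value from d0 to d5FS among the 9 members. Tet1 (chromosome 10, 62804570 to 62908996, minus strand), the main Tet enzyme of ESCs, had 225 and 139.6 CPM in d0, 99.5 and 42.8 CPM in d3F, and 42.8 and 32.5 CPM in d5FS. Both d0 samples lay above the other 4, and d3F and d5FS met at 42.8 CPM. Between d0 and d5FS, Tet1 fell by 2.28 (log2, standard error 0.457, edgeR adjusted p = 0.0118), to 20.6% of its d0 mean. The value at d3F was -1.36 (standard error 0.443, adjusted p = 0.123), and -1.42 (adjusted p = 0.0202) with the replicate as a block. That from d3F to d5FS was -0.92 (adjusted p = 0.315). The call from d0 to d5FS was lost without d5FS replicate 1 (-2.49, adjusted p = 0.0594) and without d5FS replicate 2 (-2.08, adjusted p = 0.0718), where 6.83 and 10.1% of all genes were called. It was also lost with DESeq2 against a log2 fold change of 1 (adjusted p = 0.0605). The nearest profiles were those of Grhl2, a grainyhead transcription factor of epithelia (difference 0.165), and B3gnt7, a glycosyltransferase gene (0.173).

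Tet2 (chromosome 3, 133463679 to 133545139, minus strand) had 23.7 and 73.0 CPM in d0, 12.5 and 10.3 CPM in d3F, and 22.98 and 16.5 CPM in d5FS. The d0 samples differed 3.08-fold, with the higher value in replicate 2, the sample with more naive and two-cell-like marker RNA. Both d0 samples lay above all others, narrowly for replicate 1. The log2 fold change was -2.09 to d3F (standard error 0.519, edgeR adjusted p = 0.0595) and -1.29 to d5FS (standard error 0.506, adjusted p = 0.0969), and it passed without d0 replicate 1, at -2.68 (adjusted p = 0.00776) and -1.90 (adjusted p = 0.0119). Without d0 replicate 2 the values were -1.045 (adjusted p = 0.244) and -0.25 (adjusted p = 0.713).

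Tet3 (chromosome 6, 83362373 to 83459084, minus strand) ran the other way. It had 15.9 and 4.97 CPM in d0, 20.5 and 20.6 CPM in d3F, and 29.0 and 27.0 CPM in d5FS, each population above the preceding one without overlap. The d0 samples again stood apart, 3.20-fold, here with replicate 1 the higher. At d5FS its log2 fold change against d0 was 1.42 (standard error 0.5, edgeR adjusted p = 0.0726), or 1.55 with the replicate as a block (adjusted p = 0.0309). At d3F it was 0.97 (adjusted p = 0.321). Without d0 replicate 1 the values were 2.48 (adjusted p = 0.0068) and 2.05 (adjusted p = 0.0262), both past the thresholds. Over the fits without 1 sample the value to d5FS stayed between 0.82 and 2.48. An opposite-strand noncoding gene, B230319C09Rik, held 3 to 22 counts per sample within the Tet3 locus.

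The makeup of the Tet transcripts, compared by length-normalised TPM within each sample, differed between the populations. Tet1 made up 66.8% ± 18.3 (SD, n = 2) of the summed Tet TPM in d0, 59.3% ± 12.8 in d3F and 36.0% ± 1.57 in d5FS. Tet3 made up 4.87% ± 3.45, 24.7% ± 9.10 and 35.1% ± 3.89 in the same order. Tet2 took 28.3% ± 21.7, 16.0% ± 3.74 and 28.9% ± 2.32. The ratio of Tet1 to Tet3 TPM was 10.9 and 22.1 in the d0 samples, 3.74 and 1.61 in d3F, and 1.15 and 0.92 in d5FS. The populations did not overlap in this ratio, and in d5FS replicate 2 Tet3 exceeded Tet1. The ratio of Tet1 to Tet2 was 6.15 and 1.24 in the d0 samples, 5.13 and 2.7 in d3F, and 1.21 and 1.28 in d5FS, and here d0 replicate 2 lay within the range of d5FS. A ratio of this kind does not depend on scaling between samples.

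**Figure D3:**
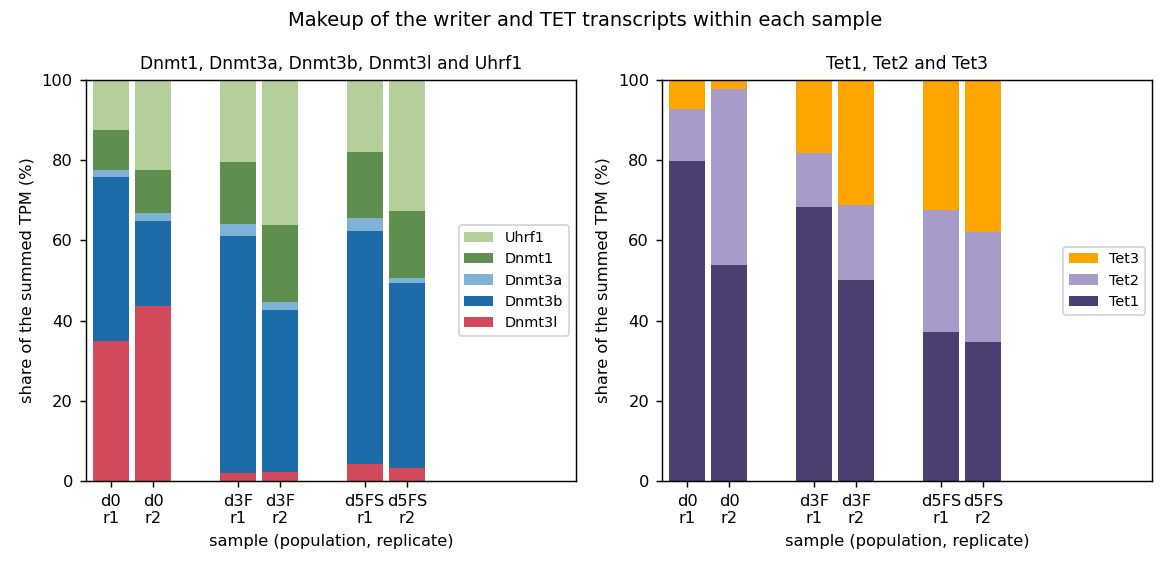
Share of each gene in the summed TPM of the 5 writer genes (left) and of the 3 Tet genes (right), in percent, with a stacked bar for each sample. Dnmt3l takes 35.0 and 43.7% of the writer TPM in d0 and at most 4.38% afterwards, and the Tet3 share goes from 7.31 and 2.43% in d0 to 32.4 and 37.9% in d5FS.

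Among the 5 writer transcripts, Dnmt3l made up 39.3% ± 6.15 (SD, n = 2) of the summed TPM in d0, 2.23% ± 0.199 in d3F and 3.84% ± 0.755 in d5FS. Dnmt3b made up 31.0% ± 13.8, 49.5% ± 13.2 and 52.0% ± 8.45, and the d0 and d3F samples overlapped in this share. Dnmt1 and Uhrf1 took 10.3 and 17.5% in d0 and 16.4 and 25.4% in d5FS. Dnmt3a made up 1.89 to 2.5% in the population means. The Dnmt3l to Dnmt3b ratio was 0.859 and 2.06 in d0 and at most 0.0756 in the 4 differentiated samples. Such shares must rise for the other genes where Dnmt3l drops, so the shares of the 5 genes are not independent.

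Tdg (chromosome 10, 82629828 to 82650799, plus strand), the glycosylase that excises the further oxidised bases, was not called in any comparison. It had 51.7 and 42.6 CPM in d0, 52.9 and 49.5 CPM in d3F, and 36.4 and 41.6 CPM in d5FS. Both d5FS samples lay below the other 4, narrowly so for replicate 2. The log2 fold changes were 0.12 and -0.39 for the 2 steps and -0.27 over the whole course, with adjusted p-values of 0.867, 0.503 and 0.511 (edgeR). The processed pseudogene Gm9855, on chromosome 10 from 42054113 to 42055306, resembles Tdg in sequence, the expected counts of both were not whole in any sample, and RSEM gave it 0.884 to 1.37 counts for each count of Tdg. The division between them is therefore uncertain. Their sum was 122.5 and 95.8 CPM in d0, 117 and 101 CPM in d3F, and 75.2 and 78.3 CPM in d5FS, where the d5FS samples lay below the other 4.

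Ordered by TPM within each sample, Dnmt3b ranked 1 of the 9 in 5 samples, and in d0 replicate 2 it ranked 3 behind Dnmt3l and Uhrf1. Uhrf1, Dnmt1 and Tdg ranked 2, 3 and 4 in all 4 differentiated samples. Tet2 ranked last in these 4, and Tet3 ranked last in both d0 samples. Dnmt3l, at 1 or 2 in d0, took places 5 to 7 afterwards.

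Around the 9 genes, 88 partner genes were listed, of which 83 had a row and 81 were tested. From d0 to d3F 1 was called lower and none higher, that gene being Dppa3 (4.70% of all genes called), and from d3F to d5FS 1 was called lower, Cdca7 (1.54% of all genes). From d0 to d5FS 23 were called lower and 5 higher, where 10.4% of all genes were called lower and 12.4% higher. Without any 1 of the samples fewer partner genes were called from d0 to d5FS, and a smaller share of all genes was called too. The median log2 fold change over the 81 was -0.28, -0.19 and -0.43 in the 3 comparisons.

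**Figure D4:**
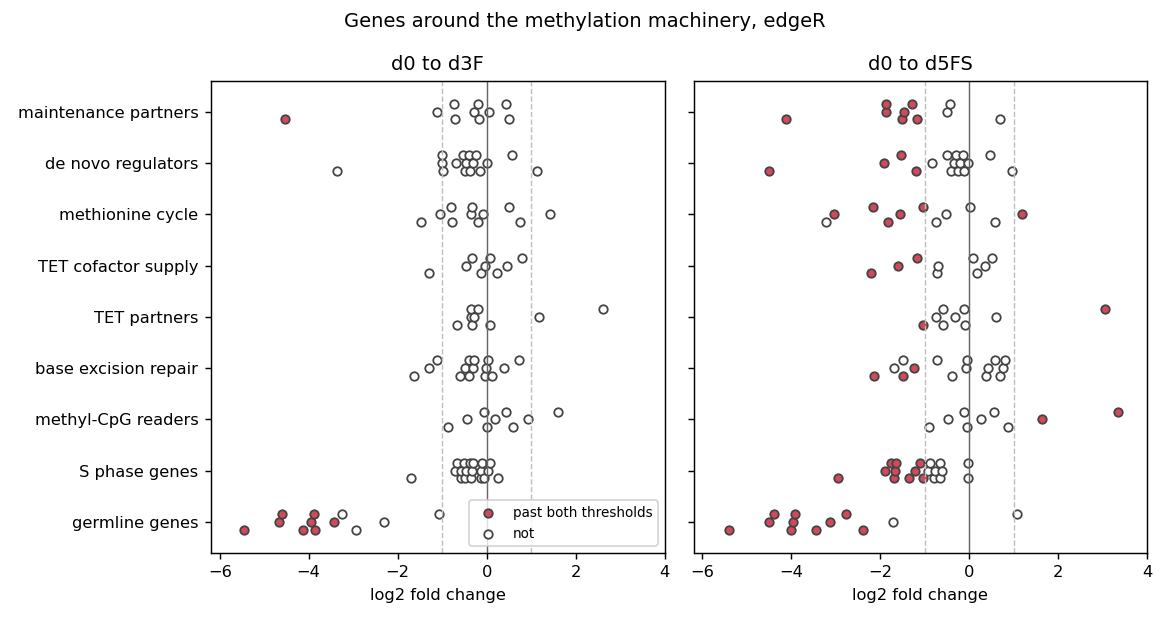
Log2 fold change of each tested partner gene from d0 to d3F (left) and from d0 to d5FS (right), by list. Filled points passed both thresholds, and dashed lines mark a log2 fold change of 1. Of the maintenance partners 7 of 10 are filled on the right and 1 on the left, whereas 8 of 12 germline genes are filled on the left already.

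Of 10 maintenance partners tested, 7 were called lower in d5FS than in d0 (10.4% of all genes), with a median of -1.38 (all genes tested, 0.02). Dppa3 fell by 4.53 from d0 to d3F (edgeR adjusted p = 0.00786) and had a value of -4.12 from d0 to d5FS (adjusted p = 0.0027). Hells, a chromatin remodeller needed for methylation of repeats, had 319 and 250.1 CPM in d0 and 89.6 and 66.0 CPM in d5FS (-1.87, adjusted p = 0.0115). Its activator Cdca7 had 129 and 188 CPM in d0, 136 and 125.5 CPM in d3F and 43.4 and 43.2 CPM in d5FS, and it fell by 1.59 from d3F to d5FS (adjusted p = 0.0452). That call was lost on library totals, with at least 10 counts required in every sample, and with DESeq2 against a log2 fold change of 1. It was also lost without any of the d3F or d5FS samples, fits that called a smaller share of all genes than the 1.54% called with all 6 samples. Usp7, a deubiquitinase that stabilises Dnmt1 and Uhrf1, fell by 1.52 from d0 to d5FS (adjusted p = 0.0185). The others called were Pcna, Lig1 and Hdac1, which serve replication and chromatin in general.

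Uhrf2, a relative of Uhrf1 that does not replace it in maintenance, rose from 53.4 and 53.0 CPM in d0 through 93.6 and 106 CPM in d3F to 122 and 113 CPM in d5FS. The difference from d0 to d5FS was 1.145 (standard error 0.265, edgeR adjusted p = 0.0191). The tRNA methyltransferase gene Trdmt1 (Dnmt2) had means of 7.75 CPM in d0 and 5.56 CPM in d5FS and was not called.

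Among 16 regulators of de novo methylation 4 were called lower in d5FS and none higher, where 22.8% of all genes were called (10.4% lower). Trim28, which with KRAB zinc finger proteins recruits silencing to repeats and imprints, had 1569 and 2413 CPM in d0 and 393 and 657 CPM in d5FS (-1.92, edgeR adjusted p = 0.0121). Prdm14, a naive pluripotency factor known to repress Dnmt3 genes, had 1.89 and 12.6 CPM in d0, 0.731 and 0.657 CPM in d3F and 0.34 and 0.287 CPM in d5FS (-4.50, adjusted p = 0.0142). L3mbtl2 and Pcgf6, subunits of the variant Polycomb complex that silences germline genes, had values of -1.54 (adjusted p = 0.0284) and -1.21 (adjusted p = 0.0254).

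The supply of the methyl donor and of Tet cofactors was represented by 11 and 9 tested genes. In the methionine cycle 5 were called lower in d5FS and 1 higher, where 10.4% of all genes were called lower and 12.4% higher. Mat2a, which makes S-adenosylmethionine, had 457 and 351 CPM in d0, 266 and 198 CPM in d3F and 99.5 and 81.5 CPM in d5FS (-2.16, edgeR adjusted p = 0.00441). Ahcy, which clears S-adenosylhomocysteine, had 624 and 907 CPM in d0 and 157 and 274 CPM in d5FS (-1.83, adjusted p = 0.0171). Mtr, methionine synthase, went from a mean of 42.4 to 14.3 CPM (-1.56, adjusted p = 0.00913), and Gnmt from 5.02 to 0.599 CPM (-3.05, adjusted p = 0.0257). Of the cofactor genes 3 were called lower, none higher and 6 not at all, where 22.8% of all genes were called (10.4% lower). The 3 were the vitamin C transporters Slc23a1 (-2.21, adjusted p = 0.0202) and Slc23a2 (-1.60, adjusted p = 0.012), and Idh3a, an isocitrate dehydrogenase subunit (-1.17, adjusted p = 0.0417). Slc23a1 had only 2.50 and 1.32 CPM in d5FS.

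Of 15 base excision repair genes 3 were called lower in d5FS and none higher, where 22.8% of all genes were called (10.4% lower). These were Ung (-2.14, edgeR adjusted p = 0.0116), the uracil glycosylase; Apex1 (-1.48, adjusted p = 0.0129), the abasic site endonuclease; and Parp1 (-1.24, adjusted p = 0.0321). Of 9 Tet partners 2 were called, close to the 22.8% of all genes called in either direction. Hcfc1, a partner of the O-GlcNAc transferase, was called lower (-1.04, adjusted p = 0.0496) and Cxxc4, a CXXC protein known to act on Tet2, was called higher (3.06, adjusted p = 0.0206) from at most 0.877 CPM in d0. Of 9 methyl-CpG readers 2 were called higher and none lower, where 22.8% of all genes were called (12.4% higher). Zbtb4 had 3.16 and 1.64 CPM in d0, 6.78 and 7.83 CPM in d3F and 30.5 and 18.2 CPM in d5FS (3.34, adjusted p = 0.00397).

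Germline genes known to be silenced through promoter methylation were read beside the writers. Of 12 tested, 8 were called lower in d3F than in d0 (1.90% of all genes) and 10 in d5FS (10.4% of all genes), with none higher, and their summed level was 66.7 and 95.4 CPM in d0, 6.94 and 5.30 CPM in d3F and 10.7 and 7.45 CPM in d5FS. The fall of these genes and that of Dnmt3l lay in the same interval, from d0 to d3F, in which Dnmt3b, Dnmt1 and Uhrf1 had log2 fold changes of -0.25, -0.24 and -0.34 that did not pass.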

How the data were processed

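RNA of 6 sorted samples, 2 each of d0, d3F and d5FS, was sequenced as paired 100-base reads after depletion of ribosomal RNA, per the labels and the study's methods. The authors, per the labels, used STAR and RSEM on mm10. The deposited RSEM gene tables hold expected counts, TPM, FPKM and abundance-weighted transcript lengths in bases. Expected counts were rounded here, filtered with filterByExpr (14539 genes kept of 24054), scaled by TMM and tested with edgeR 4.0.16 (R 4.3.3), with 1 mean per population, a quasi-likelihood test with 3 residual degrees of freedom and Benjamini-Hochberg adjustment over all genes. A standard error is the size of the log2 fold change over the root of its F value, and fold changes carry a prior count of 0.125. The study's own method, DESeq2 with a tested log2 fold change of 1, was run as an alternative (version 1.42.0). The fit was tested on simulated data.

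Levels between samples are CPM on TMM-scaled totals. TPM was used within a sample only, because small noncoding RNAs took a large part of it (Rmrp or Snord22 alone took 18.1 to 33.0%). FPKM served for an alternative. TMM factors lay between 0.877 and 1.08. With 16457729 to 22768686 counts per sample, the spread between replicates exceeded counting noise many times over (chi-square per degree of freedom 91.2 to 199), so no pair was 1 library deposited again.

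The 9 members and all gene lists were chosen with earlier results of these data known. All members are named. Of each partner list the text names at most 4 genes, those called in any comparison reaching a mean of 1 TPM in some population and the largest change from d0 to d5FS, and for each called member the 2 nearest profiles. Exceptions, chosen after their values were seen, are Pcna, Lig1, Hdac1, Trdmt1, Cxxc4, and the S phase examples.

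Same-numbered samples deviated together from their population means (Pearson r over 14539 genes 0.314, 0.324 and 0.278 for the 3 pairs of populations). The replicate number was therefore fitted as a block in an alternative, although no pairing is stated. In the study's sample list, each population has an mRNA library and a total RNA library, which differs from the depletion given for all samples, and which replicate is which is not given there. A block by replicate number may thus stand for the kind of library, and the 2 cannot be told apart. In d0, d3F and d5FS, replicate 1 had 16970, 16835 and 16770 genes with at least 1 count. Replicate 2 had 18642, 18343 and 19846. Alternatives were other scalings and filters, DESeq2, the 2 compared populations alone, the block and leaving out each sample. Promoter windows, 250 bases before to 50 after each start, came from a RefSeq table of GRCm38.p6, in which all 9 members matched. Gene positions are from GENCODE M21. Protein sequences were not used here.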

Additional observations from a re-analysis of the deposited data

How the results depend on the processing

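Of 405 refits of the 27 member differences, 376 kept their direction and their side of the thresholds, 8 lost a call, 17 gained one and 4 changed sign. The 4 were all uncalled: Dnmt3b from d0 to d3F without d0 replicate 1 (0.098) and without d3F replicate 2 (0.038; range without 1 sample -0.59 to 0.098), Dnmt3l from d3F to d5FS without d5FS replicate 2 (-0.059; range to 0.19), and Uhrf1 from d0 to d3F without d0 replicate 2 (0.37; range from -0.81). The cause was not tested.

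The number of members called from d0 to d3F was 1 as reported (4.70% of all genes) and 3 with no filter on low counts. It was 3 with DESeq2's Wald test (10.0%) and 2 with the replicate block (9.08%). From d0 to d5FS it was 3 as reported (22.8%), 6 with no filter and 6 with DESeq2's Wald test (26.3%). It was 1 with DESeq2 against a log2 fold change of 1 and 5 with the replicate block (29.5%). The share of all genes called with no filter was not computed. The number was higher without d0 replicate 1 in both comparisons. From d0 to d5FS it was lower without d0 replicate 2 or either d5FS replicate. Every fit without 1 sample called a smaller share of all genes from d0 to d5FS. DESeq2 against a log2 fold change of 1 calls fewer genes by construction, 6.79% of those tested.

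The partner genes called from d0 to d3F, 1 as reported, were 8 with no filter, 7 with DESeq2's Wald test, 5 with the replicate block, and 1 to 5 without 1 sample (5 without d0 replicate 1). From d3F to d5FS, also 1, they were 0 on library totals, 0 with at least 10 counts in every sample, 0 with DESeq2 against a log2 fold change of 1, 9 with no filter, 8 with DESeq2's Wald test, 4 with only the 2 populations compared, 8 with the replicate block, and 0 to 4 without 1 sample (0 without any of the d3F or d5FS samples, 4 without d0 replicate 1, 3 without d0 replicate 2). From d0 to d5FS, 28 as reported, they were 4 with DESeq2 against a log2 fold change of 1 and 6 to 26 without 1 sample. Where 1 sample was left out, the lone sample of its population was assumed to vary like the others. The share of all genes called moved too. From d0 to d3F it was 4.70% as reported, 10.0% with DESeq2's Wald test and 9.08% with the replicate block. From d3F to d5FS it was 1.54, 7.16 and 6.31% in the same order, and 1.28% with DESeq2 against a log2 fold change of 1. It was below 1.54% without any of the d3F or d5FS samples and above it without 1 of the d0 samples. From d0 to d5FS it was 22.8% as reported and 6.79% with DESeq2 against a log2 fold change of 1.

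With Uhrf1 and Dnmt3l left out of the writer sum, Dnmt3b made up 70.2, 70.8 and 73.3% of it in d0, d3F and d5FS, Dnmt1 25.1, 25.6 and 23.4%, and Dnmt3a 4.62 and 3.57% in d0 and d3F, as follows from the smaller sum.

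Tet2 from d0 to d3F missed the threshold at -2.09, where its d0 replicates differed 3.08-fold, and a missed threshold does not show equal levels. The block changed no member's call apart from those of Uhrf1, Tet1 and Tet3 given above.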
